A study of Rattus norvegicus with 24 samples.

Results

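The genes described here make up the antioxidant and glutathione defence of the rat heart, and they were chosen by gene symbol: glutathione transferases (Gst, Mgst), glutathione peroxidases (Gpx), peroxiredoxins (Prdx), thioredoxins and their reductases (Txn, without Txnip), superoxide dismutases (Sod), catalase (Cat), the enzymes that make or recycle glutathione (Gclc, Gclm, Gss, Gsr), haem oxygenases (Hmox), the quinone reductase Nqo1 and the transcription factor Nfe2l2. The platform carried 38 such genes with 1 probe each, and 34 of them had values on at least 2 arrays of each right ventricle group and were used, among 4115 named genes and unnamed probes with any value. The rule used no measured value other than the presence of a value, but genes and lists were chosen with earlier results of these data known.

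Ventricle RNA of rats was measured on 24 arrays with a pair of colours each, 1 ventricle sample in one channel and a common reference pool in the other. The samples carried the labels CON, HYP and CHF, all at day 14, with 6 right ventricle and 2 left ventricle arrays per condition. The series concerns hypertrophy after injection of monocrotaline, a plant alkaloid that injures lung vessels and so loads the right ventricle, and from its title HYP and CHF were read as the compensated and the decompensated, failing state and CON as the control. The sources used here do not give the treatment of CON animals, the dose, strain, sex or age, or what the pool held. The same day for both HYP and CHF means that time does not separate them. Whether the numbered samples were separate animals is not stated, and p-values here reflect only the spread between them, which may be technical.

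Reactive oxygen species arise in the heart chiefly in mitochondria and from oxidases. Superoxide dismutases turn superoxide into hydrogen peroxide, and catalase, glutathione peroxidases and peroxiredoxins remove the peroxide, the last 2 kinds of enzyme at the cost of glutathione and thioredoxin. Glutathione transferases couple glutathione to reactive compounds, and the factor NRF2, encoded by Nfe2l2, switches many of these genes on through a short promoter sequence, the antioxidant response element.

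Of the 34 genes, 9 encode soluble or mitochondrial glutathione transferases: Gsta1, Gsta4, Gstk1, Gsto1, Gstp1, Gstt1 and Gstt2 with a value on all 18 right ventricle arrays, Gstm5 on 14 and Gstm1 on 10. The membrane-bound transferase Mgst1 was measured on all 18. The 3 peroxidases were Gpx3 and Gpx5, both on all 18, and Gpx1 on 16. The 5 peroxiredoxins Prdx1, Prdx2, Prdx3, Prdx4 and Prdx5, the dismutases Sod1, Sod2 and Sod3, and Cat had all 18 values. So did Txn1, Txnrd1 and Txnrd2, while Txn2 had 17. In glutathione synthesis Gclm and Gss had 18 values and Gclc 15. In the NRF2 group Hmox2 had 18 values, Nfe2l2, Hmox1 and Nqo1 had 17 each, and Hmox2-ps1, a copy of the Hmox2 gene classed as a pseudogene, had 11. The 4 genes left out for missing values were Gpx4 with 2 right ventricle values, Gpx6 with 3, Gsr with 9 and Gsta2 with 9. Whether the 1 probe of a gene tells close relatives apart, such as the alpha and mu classes of glutathione transferase or Hmox2 and its copy, was not tested.

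RefSeq promoter windows of the GRCr8 assembly, 250 bases before to 50 after a gene's start, were given for 29 of the 34 genes. Gstt1, Gstt2, Hmox1, Hmox2-ps1 and Sod3 had none. The core of the antioxidant response element, TGACNNNGC on either strand, was in 11 of 31 windows of these genes (35.5%) and in 12.1% of all 33469 windows. The core of the AP-1 site, TGANTCA on either strand, was in 5 of the 31 (16.1%) and in 7.33% of all windows. The stretches below show the cores that lie wholly before the start in 7 genes, because this is the sequence through which NRF2 is known to act, with the core in capitals and 20 bases on either side. They are written 5′ to 3′ on the gene's strand, with GRCr8 coordinates.
Gclm, chr2:213031943-213031991, plus strand: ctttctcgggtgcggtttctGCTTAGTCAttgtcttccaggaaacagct
Gstm5, chr2:198219636-198219684, plus strand: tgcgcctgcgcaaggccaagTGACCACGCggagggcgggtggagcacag
Gstm5, chr2:198219696-198219744, plus strand: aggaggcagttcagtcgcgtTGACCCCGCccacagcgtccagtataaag
Gstp1, chr1:210769738-210769786, minus strand: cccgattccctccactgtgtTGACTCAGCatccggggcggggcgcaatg
Hmox2, chr10:11337679-11337727, minus strand: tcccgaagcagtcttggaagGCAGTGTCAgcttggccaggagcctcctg
Prdx1, chr5:135383751-135383799, plus strand: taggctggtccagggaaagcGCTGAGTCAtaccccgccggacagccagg
Sod2, chr1:50050175-50050223, minus strand: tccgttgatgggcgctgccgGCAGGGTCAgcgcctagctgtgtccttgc
Txnrd1, chr7:22755954-22756002, minus strand: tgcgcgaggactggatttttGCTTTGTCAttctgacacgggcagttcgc

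Counted from the gene's start, the match began at base -61 in Gstp1 and at base -135 in Prdx1, and in both the capitals also spell the AP-1 core. Of the other 4 genes with a match, Prdx5 had it across the start, from base -1, and Gsta1, Nfe2l2 and Prdx4 had it after the start. Each match is a run of letters and was not measured as a binding site. In the failing right ventricle 4 of the 11 genes with a match had a difference from CON above 0, beside 13 of all 34. After turning the sign of doubtful arrays, as explained next, it was 4 of 11 beside 16 of 34.

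Scores are in array SDs, since each array's deposited values had an SD near 1, and each array was centred on its median. A positive score was read as more RNA in the sample than in the pool, but the sources used here do not give the dyes, the scale or the direction. The arrays held 2162 to 3658 values, with medians of 3381 per CON, 3300 per HYP and 2982.5 per CHF right ventricle array. The lowest correlation between arrays over all features was -0.530, and 13 pairs lay below -0.3, which leaves the direction of a score unsettled. Each comparison is therefore also given with the sign turned on 5 arrays: in the right ventricle arrays 10 and 14 of CHF, and in the left ventricle array 9 of CHF and both CON arrays, 21 and 22. Those 2 right ventricle arrays belong to CHF, so CHF differences move with the choice. In the right ventricle the difference of HYP from CON is the same either way and only its p moves, through the shared spread. In the left ventricle, where both CON arrays are turned, that difference moves too. HYP right ventricle array 4 was not turned, although its median correlation with right ventricle arrays, -0.0321, was below the 0.0824 of CHF array 10. Of 17 heart muscle markers listed, 12 had values, with right ventricle medians from -2.15 for Myh6 to 1.07 for Pln, but a score against the pool does not show how much of a marker was present. In such whole tissue, fewer cells of a type and less RNA per cell cannot be told apart.

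In the failing right ventricle none of the 34 genes passed an adjusted p below 0.05 against CON. The 6 genes with the smallest p were 3 removers of peroxide (Prdx5, Cat and Prdx3), the glutathione transferases Mgst1 and Gsta1, all with lower mean scores in CHF, and the transferase Gstm1, with a higher one. The count by limma with Benjamini-Hochberg adjustment was 0 of 34, where 29 of 3199 features passed (0.907%). At an unadjusted p below 0.05 there were 6 of 34 (17.6%), 1 of them higher, beside 8.5% of all features. Over the 34 genes 13 differences were above 0 (38.2%) and 21 below, where 41.2% of all features were above 0. The median was -0.152, beside a median of -0.0992 over all features. With the sign turned the count was again 0, where 9 features passed (0.281%). Under that sign 4 genes had an unadjusted p below 0.05 (11.8%, beside 10.3% of features). They were Gstp1, with a higher mean score in CHF, and Prdx5, Gpx5 and Prdx4, with lower ones. Of the 6 genes named above, only Prdx5 was among them. With the sign turned 16 differences were above 0, and 15 of the 34 genes had the opposite sign to before.

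Some markers of other cells also differed between CHF and CON. Of 6 smooth muscle and pericyte markers, 3 had an unadjusted p below 0.05 and 1 passed, Acta2, the smooth muscle actin, at 1.58 ± 0.252 (limma adjusted p = 0.001323; turned, 1.25 with 0.08486). Of 6 fibroblast markers 5 had a difference below 0 and 0 passed. Of 5 liver markers 1 passed, the fibrinogen chain gene Fgb, at 1.91 ± 0.338 (limma adjusted p = 0.004563; turned, 1.30 with 0.2822). Only 2 of these 5 had a difference above 0, and the median of the 5 was -0.291. Of 4 erythrocyte markers 3 had a difference above 0 (median 0.990), as did 2 of 5 macrophage and monocyte markers and 0 of 2 endothelial markers. In these 3 lists 0 passed. Of 12 cardiomyocyte markers 7 had a difference below 0 and 0 passed. The part of these cells in the antioxidant genes' differences was not tested.

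**Figure D1:**
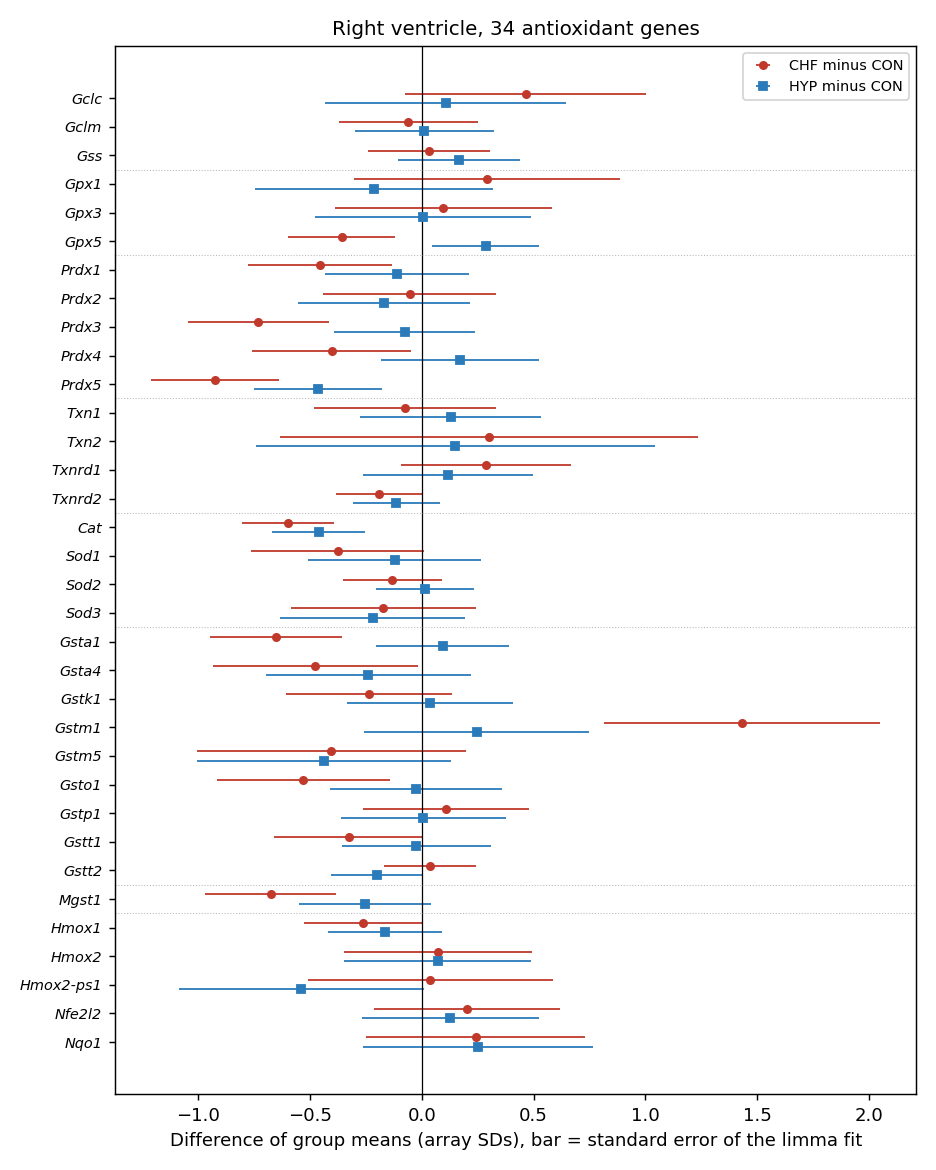
Difference of the mean score from CON in the right ventricle for the 34 genes, in array SDs, with circles for CHF and squares for HYP, bars for 1 standard error of the limma fit, and dotted lines between families. All 5 peroxiredoxins and all 4 of Sod1, Sod2, Sod3 and Cat lie below 0 in CHF, where Prdx5 is at -0.925 and Cat at -0.599, and Gstm1 stands highest at 1.43 from 2 CHF arrays.

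The peroxiredoxins, thiol enzymes that reduce peroxides, had differences below 0 in 5 of 5 genes, with a median of -0.456, and in 4 of 5 after turning the sign, with Prdx2 at 0.561. Prdx5, found in mitochondria, peroxisomes and the cytosol, had scores from -0.047 to 1.46 with a median of 0.744 in CON. In HYP they ran from -0.151 to 0.910 with a median of 0.220, and in CHF from -0.931 to 0.260 with a median of -0.118. A single CON array lay inside the range of CHF, and the other 5 lay above all 6 CHF arrays. CHF minus CON was -0.925 ± 0.286 (SE, n = 6 and 6), with a 95% interval of -1.52 to -0.326, an unadjusted limma p of 0.00443 and an adjusted p of 0.2213. Turning the sign gave -0.759.

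Prdx3 works in the mitochondrial matrix and uses Txn2 as its partner. Its scores ran from 0.249 to 1.62 in CON with a median of 0.881, from 0.040 to 1.26 in HYP with a median of 0.880, and from -0.575 to 1.10 in CHF with a median of 0.0685. The CHF arrays spread widely, with 3 below every CON and HYP array and 1 among the highest. The CHF difference was -0.732 ± 0.316 (limma adjusted p = 0.525), and -0.489 with the sign turned. Prdx1, a cytosolic enzyme, was at -0.456 ± 0.320 (limma adjusted p = 0.7262; turned, -0.233), and CHF array 12 alone stood at -1.88.

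Cat encodes catalase, the peroxisomal enzyme that splits hydrogen peroxide. CON scores lay between -0.037 and 0.664 with a median of 0.408. The HYP range was -0.475 to 0.164 with a median of -0.0583, and that of CHF was -0.661 to 0.036 with a median of -0.113. In CON 5 of 6 arrays lay above all 12 arrays of HYP and CHF, and the sixth lay inside both ranges. Against CON the CHF difference was -0.599 ± 0.208, with a 95% interval of -1.03 to -0.164, an unadjusted limma p of 0.00958 and an adjusted p of 0.3154. It was -0.211 with the sign turned, since CHF arrays 10 and 14 held the lowest Cat scores of the group. Cat spread little within groups: its SD was 0.260, lower than that of all but 3.02% of 1656 features measured on every right ventricle array.

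Before the sign was turned, the superoxide dismutases were nearer to CON than Cat was. With it turned Cat, at -0.211, was nearer to CON than any of them. Sod1, the cytosolic enzyme, had scores of 0.143 to 0.869 in CON (median 0.441), -0.604 to 1.03 in HYP (0.574) and -0.956 to 1.09 in CHF (0.221), with a CHF difference of -0.377 ± 0.386 (turned, 0.259). The CHF and HYP ranges both covered that of CON. Sod2, the mitochondrial enzyme, ran from 0.403 to 0.840 in CON (median 0.71), from 0.193 to 1.15 in HYP (0.705) and from 0.182 to 1.14 in CHF (0.479), and differed by -0.132 ± 0.220 (turned, -0.293). Sod3, the secreted enzyme, was at -0.172 ± 0.415 (turned, 0.730). Sod1, Sod2, Sod3 and Cat all had differences below 0, but with the sign turned Sod1 and Sod3 were above 0.

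**Figure D2:**
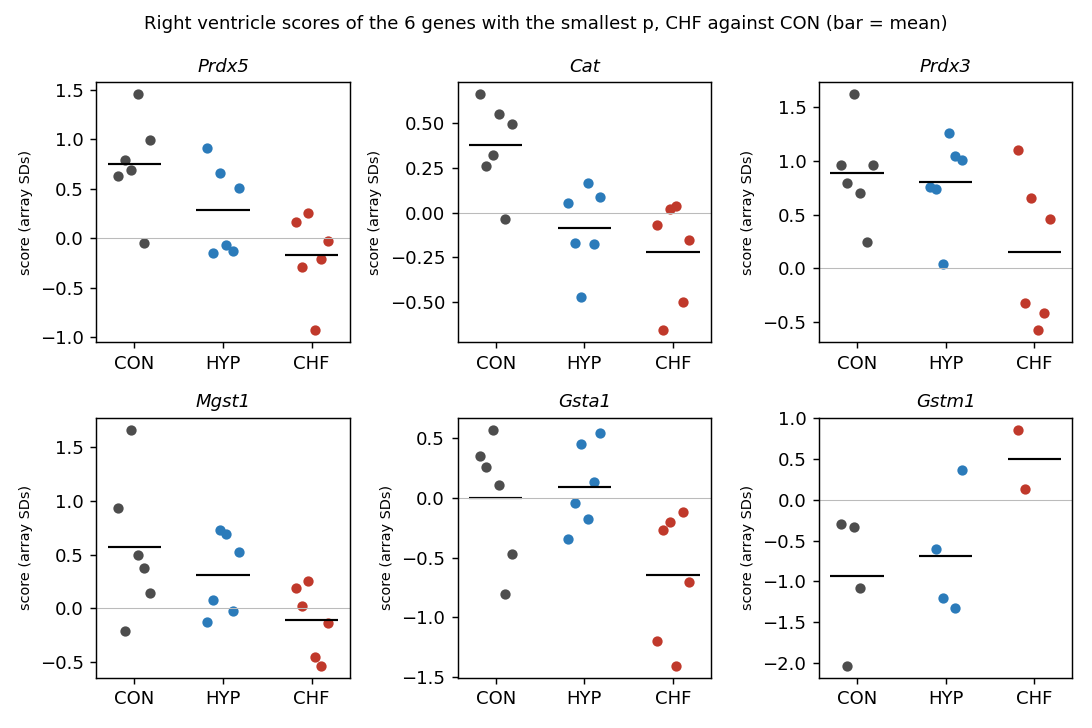
Scores in array SDs on each right ventricle array for the 6 genes with the smallest p in CHF against CON, with 1 point per array and a bar at the group mean. Cat scores reach 0.664 in CON and 0.036 in CHF, and Gstm1 has only 2 CHF points.

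Among the soluble glutathione transferases 3 of 9 differences were above 0, with a median of -0.328. Turning the sign put 6 of 9 above 0, with a median of 0.372. Gsta1 scores lay between -0.807 and 0.574 in CON (median 0.187), between -0.341 and 0.545 in HYP (0.044) and between -1.41 and -0.114 in CHF (-0.486). All 6 CHF arrays scored below 0, although the ranges of CHF and CON overlapped. The difference was -0.652 ± 0.296 (limma adjusted p = 0.5335), and -0.525 with the sign turned.

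Mgst1, the membrane-bound transferase, scored -0.218 to 1.67 in CON (median 0.436), -0.132 to 0.726 in HYP (0.302) and -0.539 to 0.253 in CHF (-0.056). The ranges overlapped, with 4 CON arrays above the highest CHF array. Its CHF difference was -0.677 ± 0.294 (limma adjusted p = 0.525; turned, -0.505).

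Gstm1, a mu-class transferase, was seen on few arrays. Its CHF scores were 0.864 and 0.134, those of HYP were -0.600, -1.2, -1.32 and 0.367, and those of CON were -0.295, -2.04, -0.329 and -1.08. Both CHF values exceeded all 4 CON values, but 4 of the 6 CHF arrays held none. From these 2 and 4 arrays the difference was 1.43 ± 0.617 (limma adjusted p = 0.5335), or 1.30 with the sign turned. Among the 26 of the 34 genes with a value on all 12 arrays, 0 had groups that did not overlap, beside 1.45% of features. Gstp1, the pi-class enzyme, scored -0.837 to 0.228 in CON (median -0.372), -1.04 to 0.376 in HYP (-0.360) and -1.44 to 0.762 in CHF (-0.028). Its ranges overlapped, and the difference of 0.109 ± 0.370 became 0.960 with the sign turned.

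Glutathione peroxidases reduce peroxides with glutathione. Gpx1, the abundant cytosolic form, had CON scores of -1.70 to 1.93 (median -0.563), HYP scores of -1.16 to 0.491 (-0.634) and, on 4 arrays, CHF scores of -0.660 to 0.440 (0.0905). CON alone spanned the other groups, and the difference was 0.290 ± 0.595 (turned, 0.0741). Gpx5, a secreted form known from the epididymis, had a CHF difference of -0.359 ± 0.240 (limma adjusted p = 0.7205; turned, -0.653).

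In the NRF2 group and in glutathione synthesis no gene passed the test against CON, and the groups overlapped for each gene named here. Nfe2l2 itself scored -0.478 to 0.968 in CON (median 0.0293), -0.829 to 1.67 in HYP (-0.0443) and -0.280 to 1.01 on 5 CHF arrays (0.096), a CHF difference of 0.203 ± 0.416 with a 95% interval of -0.671 to 1.08. Hmox1, which breaks down haem and is a classic NRF2 target, scored -0.871 to 0.318 in CON (median -0.269), -0.937 to 0.411 in HYP (-0.410) and -0.673 to -0.169 on 5 CHF arrays (-0.509). Its difference was -0.262 ± 0.266, with a 95% interval of -0.821 to 0.296. The HYP range held that of CHF for both genes.

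Nqo1, which reduces quinones, scored -2.96 to 0.180 in CON (median -0.0203), -1.67 to 0.341 on 5 HYP arrays (-0.293) and -1.03 to 0.262 in CHF (-0.237). The low end of CON was array 20 alone, and the difference of 0.241 ± 0.492 became -0.234 without it. Gclc, the catalytic subunit that sets the pace of glutathione synthesis, had 5 values per group: -1.66 to 0.620 in CON (median -0.404), -1.07 to 0.723 in HYP (-0.669) and -1.38 to 1.48 in CHF (-0.045), a difference of 0.464 ± 0.539. Gclm, its modifier subunit, scored -0.468 to 0.434 in CON (median 0.0633), -0.410 to 0.404 in HYP (0.0703) and -0.904 to 1.2 in CHF (-0.118), a difference of -0.0603 ± 0.312. Turning the sign gave differences of -0.478 for Nfe2l2, 0.247 for Hmox1, 0.917 for Nqo1, -0.128 for Gclc and 0.351 for Gclm, so only Nqo1 of these 5 kept its sign.

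In the compensated right ventricle 17 of the 34 differences from CON were above 0 and 17 below, where 43.8% of all features were above 0. Cat, with a lower mean score in HYP as in CHF, was the only one with an unadjusted p below 0.05. HYP minus CON passed an adjusted p below 0.05 for 0 of 34 genes, where 9 of 3199 features passed (0.281%), by limma with Benjamini-Hochberg adjustment. At an unadjusted p below 0.05 it was 1 of 34 (2.94%), beside 4.1% of features. The Cat difference was -0.462 ± 0.208 with an adjusted limma p of 0.9997. Prdx5 was at -0.466 ± 0.286, Gpx5 at 0.286 ± 0.240, Gstt2, a theta-class transferase, at -0.202 ± 0.205, and Hmox2-ps1, from 4 and 3 arrays, at -0.539 ± 0.549, each with a limma adjusted p of 0.9997. Groups that did not overlap were found for 0 of 29 genes with all 12 values, beside 0.759% of features. The comparisons of CHF and of HYP share the CON arrays, so likeness between them is not independent: Cat was at -0.599 and -0.462, and Prdx5 at -0.925 and -0.466.

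Between the failing and the compensated right ventricle, Gpx5 and Gsta1 had the smallest p, both with lower mean scores in CHF. CHF minus HYP passed an adjusted p below 0.05 for 0 of 34 genes, and for 0 of 3199 features (0%), by limma. At an unadjusted p below 0.05 there were 2 of 34 (5.88%), beside 4.94% of features, and 1 feature passed the adjusted p with the sign turned. Gpx5 scores ran from 0.585 to 1.72 in HYP (median 1.28) and from 0.204 to 0.954 in CHF (0.577), a difference of -0.644 ± 0.240 (limma adjusted p = 0.938; turned, -0.938). The lowest HYP array lay inside the range of CHF. Gsta1 differed by -0.744 ± 0.296 and Prdx3 by -0.656 ± 0.316, or by -0.617 and -0.412 with the sign turned. Gstm1 differed by 1.19 ± 0.617 from 2 and 4 arrays (turned, 1.05). Prdx4, the peroxiredoxin of the endoplasmic reticulum, differed by -0.574 ± 0.355 (turned, -1.08). The limma adjusted p-values of Gsta1, Prdx3 and Gstm1 were 0.938 and that of Prdx4 was 0.9403. After turning the sign 6 of 34 genes had an unadjusted p below 0.05 (17.6%, beside 8.03% of features). Groups did not overlap for 0 of 25 genes with all 12 values, beside 0.234% of features.

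The right and left ventricles differed in 3 of the 29 genes that had at least 2 values in each of the 6 groups, where 457 of 2494 features passed (18.3%), by limma with Benjamini-Hochberg adjustment averaged over the conditions. Gpx5 and Prdx4 were higher and Prdx1 was lower in the right ventricle. The left ventricle samples carry a separate, later run of sample numbers, so ventricle cannot be told apart from a difference in handling. Deposited scores of left ventricle arrays 15 of CHF and 21 and 22 of CON have only 2 decimals, unlike those of the other arrays. Both CON arrays of the left ventricle thus differ in this from both HYP arrays. Gpx5 scores ran from 0.204 to 1.72 on the 18 right ventricle arrays and from -1.08 to -0.093 on the 6 left ventricle arrays, with no overlap. Right minus left was 1.41 ± 0.190 (limma adjusted p = 0.0001573), and it was 1.33 in CON, 1.61 in HYP and 1.30 in CHF. Prdx4 ran from 0.169 to 2.36 on the right and from -0.780 to 0.420 on the left, and only 2 left ventricle arrays scored above 0. Its difference was 1.30 ± 0.280 (limma adjusted p = 0.005603), with 1.74 in CON, 1.32 in HYP and 0.830 in CHF. Prdx1 ran from -1.88 to 0.235 on the right and from -0.319 to 1.13 on the left, a difference of -0.772 ± 0.258 (limma adjusted p = 0.04273).

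**Figure D3:**
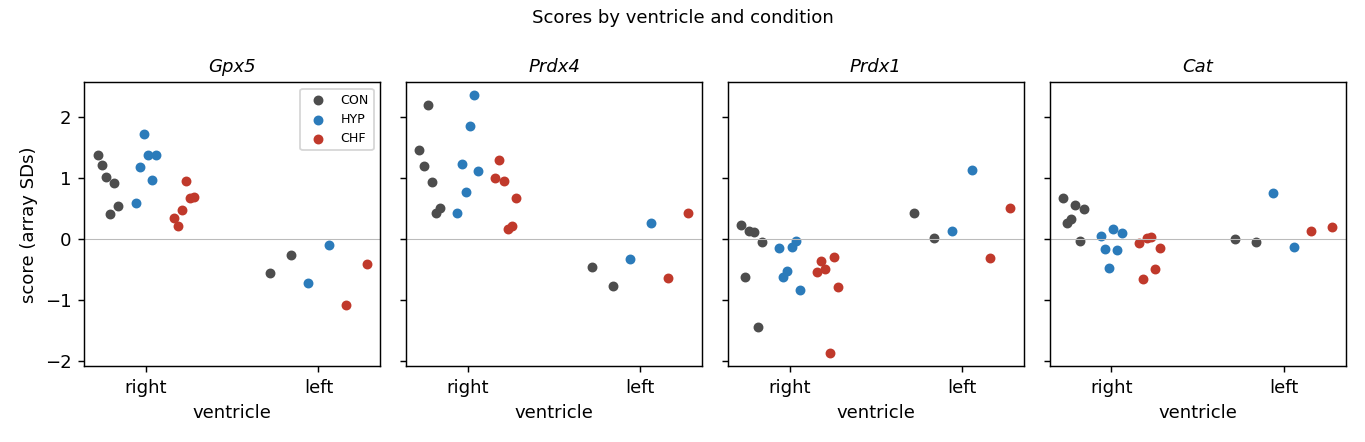
Scores in array SDs of Gpx5, Prdx4, Prdx1 and Cat on each array, by ventricle and coloured by condition, with 6 right and 2 left ventricle arrays per condition. Gpx5 is above 0 on all 18 right ventricle arrays and below 0 on all 6 left ventricle arrays, while Cat overlaps between the ventricles.

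None of these calls held with the sign turned, when 0 genes and 0 of 2494 features passed. Gpx5 was then at 0.679 (limma adjusted p = 0.3574), Prdx4 at 0.501 (0.483) and Prdx1 at -0.660 (0.3756). Prdx1 also lost its call in 11 of 24 fits that left out 1 array, with differences from -0.938 to -0.606 and limma adjusted p-values from 0.02975 to 0.1424 over the 24. Those arrays were HYP 3 and 8, CHF 9, 11 and 15 and CON 18 of the right ventricle, and HYP 5, CHF 9 and 15 and CON 21 and 22 of the left. Gpx5 and Prdx4 kept theirs in all 24. Next in order were Sod3 at 0.858 ± 0.320 (limma adjusted p = 0.06477; turned, -0.0856) and Txn2, the mitochondrial thioredoxin, at -1.78 ± 0.704 from 17 and 6 arrays (limma adjusted p = 0.07911; turned, -0.743). Both passed with array weights (limma adjusted p = 0.003116 for Sod3 and 0.001667 for Txn2), without CHF right ventricle arrays 10 and 14 together (0.01045 and 0.003006), and without any 1 of HYP array 4, CHF array 10 and CHF array 14 of the right ventricle. Sod3 also passed with quantile normalization (limma adjusted p = 0.0428), uncentred (0.04813), over features with a value on every array (0.04854) and without HYP right ventricle array 6. At an unadjusted p below 0.05 there were 10 of 29 genes (34.5%), beside 36.1% of features. The count of 3 was 6 without HYP right ventricle array 4 or CHF right ventricle array 14, and to 5 without CHF right ventricle array 10 or HYP left ventricle array 3.

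Markers of red blood cells and of heart muscle moved with the ventricle. The mean score of 4 erythrocyte markers (Hba-a1, Hbb, Hbb-b1 and Alas2, of 14 listed) lay between -4.84 and -0.740 on the 18 right ventricle arrays. On 5 left ventricle arrays it lay between 2.04 and 4.23, and on HYP left ventricle array 5 it was -4.68. On that array Gpx5 was at -0.093 and Prdx4 at 0.260, the highest and the second highest of the 6 left ventricle values, and Prdx1 at 1.13, the highest. All 4 erythrocyte markers, and 4 of 11 cardiomyocyte markers that could be tested, passed the test as lower in the right ventricle. The share over all features, in either direction, was 18.3%. In other lists 1 of 5 macrophage and monocyte, 1 of 5 smooth muscle and pericyte and 1 of 4 liver markers passed as higher. Of 5 fibroblast markers 1 passed as higher and 1 as lower, and of 2 endothelial markers 0 passed. With the sign turned 0 of 2494 features passed. Of the 5 left ventricle arrays with means above 0, the turned ones are CHF 9 and CON 21 and 22. The mean score of 12 cardiomyocyte markers, of 17 listed, lay between -2.19 and 1.37 on the right and between 0.574 and 1.36 on the left. The part of these cells in the ventricle differences was not tested.

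In the left ventricle, with 2 arrays per condition, none of the 29 genes passed between conditions: 0 of 2494 features passed (0%) for CHF against CON, HYP against CON or CHF against HYP by limma, while 22, 46 and 75 features had an unadjusted p below 0.05. Those were 0.882%, 1.84% and 3.01% of features, beside 1, 0 and 1 of the 29 genes. For CHF against CON the 3 genes with the smallest p were Gstt2, Sod2 and Gstp1. Gstt2 scored -0.005 and 0.230 in CHF and -1.06 and -0.720 in CON, a difference of 1.0 ± 0.427 (limma adjusted p = 0.9998). Sod2 scored 0.235 and 0.540 in CHF and 0.980 and 0.690 in CON, at -0.448 ± 0.366. Gstp1 scored 0.125 and -0.510 in CHF and -0.840 and -1 in CON, at 0.728 ± 0.664. Turning the sign, which here touches 3 of the 4 arrays, gave -0.773 for Gstt2, 0.988 for Sod2 and -1.24 for Gstp1. Whether an effect differed between the ventricles was tested too, and 0 of 29 genes and 0 of 2494 features passed (0%) for any of the 3 contrasts by limma. At an unadjusted p below 0.05 there were 0 of 29 genes each time, beside 2.73% of features for CHF against CON, 2.49% for HYP against CON and 1.36% for CHF against HYP. Turning the sign let 3 genes pass for HYP against CON in the left ventricle, Mgst1, Prdx3 and Sod2, where 96 features did (3.85%). Prdx3 then passed in the difference of that effect between ventricles as well, where 33 features did (1.32%).

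The same genes over the 6 left ventricle arrays ranged from -0.126 to 0.749 for Cat, -0.065 to 0.885 for Prdx5 and -0.085 to 1.70 for Prdx3. Mgst1 ranged from 0.122 to 1.99, Gsta1 from -0.790 to -0.052, Sod1 from -0.410 to 1.23, and Sod2 from 0.235 to 1.28. Mgst1 and Sod2 were above 0 on all 6 left ventricle arrays, and Gsta1 was below 0 on all 6. In the NRF2 group the ranges were -0.777 to 1.07 for Nfe2l2, -1.14 to -0.210 for Hmox1, and, on 5 arrays each, -1.23 to 0.409 for Nqo1 and -0.238 to 0.670 for Gclc. Gclm ranged from -0.919 to 0.805, Gpx1 from -0.169 to 1.18 and Gstp1 from -1.39 to 0.541. Gstm1 was at 2.23 and -0.985 on the HYP arrays, at 1.71 on 1 CHF array and at 0.140 on 1 CON array. Hmox1 was below 0 on every left ventricle array, and Nfe2l2, Nqo1, Gclc and Gclm were on both sides of 0.

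Within each condition the antioxidant genes spread widely from array to array. For 34 of 34 genes the widest range inside a right ventricle group exceeded the largest gap between group means, with medians of 1.96 for the range and 0.314 for the gap. Even the narrowest range exceeded the gap for 32 of 34. The within-group SD had a median of 0.569 over the 25 genes with all values, beside 0.550 over 1656 features. Among the genes it went from 0.221 for Txnrd2, the mitochondrial thioredoxin reductase, to 0.888 for Gpx3, the plasma form of glutathione peroxidase. Txnrd2, Gstt2, Cat and Sod2 were among the tightest 1.03%, 2.54%, 3.02% and 6.04% of features.

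**Figure D4:**
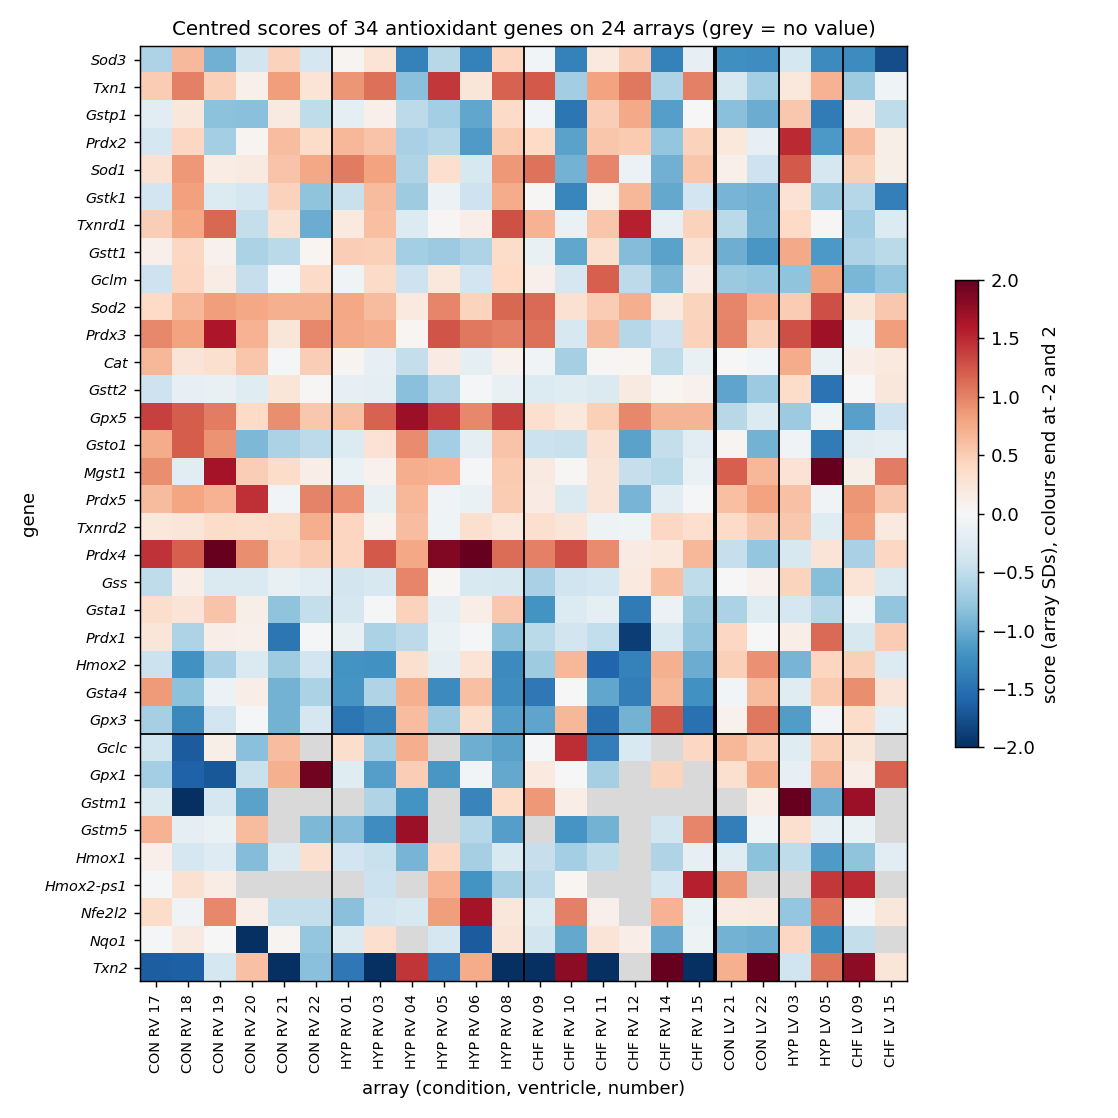
Scores in array SDs of the 34 genes (vertical) on the 24 arrays (horizontal), red above and blue below 0, grey for no value; the genes above the horizontal line have a value on every array and are ordered by their part in the first principal component of the within-group deviations. Blocks of genes switch colour together on HYP arrays 4 and 6 and CHF arrays 10 and 14 of the right ventricle, where Sod3 is between -1.36 and -1.35.

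Part of this spread was shared between genes. The leading axis of variation inside the groups, the first principal component after subtracting group means, held 43.3% of the within-group variance of 1656 features. In the median antioxidant gene it held 39.2%, and in the median feature 31.1%. On one side stood Sod3 (89.9% of its within-group variance), Txn1 (83.5%), Gstp1 (83.5%), Gstk1 (76.2%), Prdx2 (73.1%) and Sod1 (69.5%), and on the other Gpx3 (88.4%), Hmox2 (86.1%) and Gsta4 (75%). Prdx3, Prdx4, Prdx5, Gpx5, Mgst1 and Gsto1 took little part in it, each with under 8% on it: 7.33% for Prdx3, 4.09% for Prdx4, 3.16% for Prdx5, 2.72% for Gpx5, 1.39% for Mgst1 and 0.201% for Gsto1.

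Sod3 shows the pattern most plainly. Its scores were -1.36 and -1.35 on HYP arrays 4 and 6, and 0.050, 0.269, -0.557 and 0.426 on HYP arrays 1, 3, 5 and 8. In CHF they were -1.35 on both arrays 10 and 14, and -0.053, 0.198, 0.492 and -0.160 on arrays 9, 11, 12 and 15. Txn1, the cytosolic thioredoxin, followed Sod3, with -0.834 and 0.242 on HYP arrays 4 and 6, and 0.890 to 1.41 on the other HYP arrays. In CHF its scores were -0.690 and -0.623 on arrays 10 and 14, and 0.801 to 1.22 on the others. Gpx3 ran the other way, at 0.613 and 0.357 on HYP arrays 4 and 6 and at 0.663 and 1.24 on CHF arrays 10 and 14, beside -1.50 to -0.725 on the other arrays of both groups.

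Txn2, the mitochondrial thioredoxin, ran with Gpx3 over the widest range of the 34 genes, 4.94 array SDs. Its HYP scores were 1.43 and 0.747 on arrays 4 and 6 and -2.18 to -1.44 on the rest, and its CHF scores were 1.79 and 2.19 on arrays 10 and 14 and -2.75 to -2.26 on 3 others. Between CHF and CON it differed by 0.301 ± 0.935, or by -1.29 with the sign turned. The 2 arrays of CHF on the Gpx3 side are those turned in the alternative, while the HYP arrays on that side were not turned. By its median correlation given above, HYP array 4 was no less doubtful than CHF array 10.

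**Figure D5:**
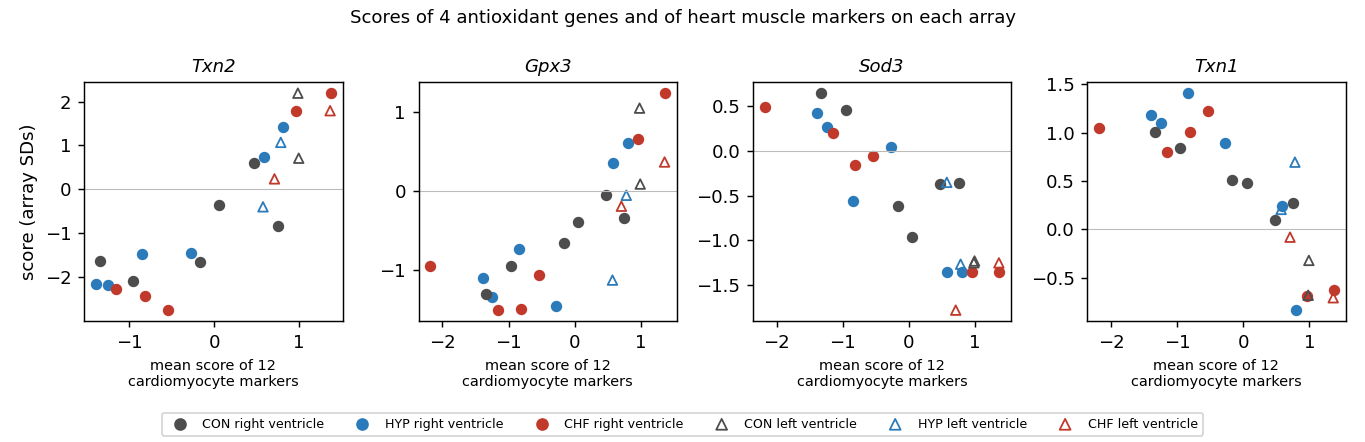
Scores in array SDs of Txn2, Gpx3, Sod3 and Txn1 (vertical) against the mean score of 12 cardiomyocyte markers (horizontal), 1 point per array, filled circles for the right and open triangles for the left ventricle, coloured by condition. CHF right ventricle arrays 10 and 14, with marker means of 0.963 and 1.37, have Txn2 at 1.79 and 2.19 and Sod3 at -1.35, but CON array 22, with a marker mean of 0.756, has Txn2 at -0.840.

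In HYP and CHF, markers of heart muscle and of endothelium had their highest means on the arrays at the Gpx3 end of this axis. The mean score of the 12 cardiomyocyte markers was 0.806 and 0.581 on HYP arrays 4 and 6, beside -1.39 to -0.278 on the other HYP arrays. It was 0.963 and 1.37 on CHF arrays 10 and 14, beside -2.19 to -0.540 on the other CHF arrays, and it lay between -1.34 and 0.756 in CON. The mean of the only 2 endothelial markers measured, Flt1 and Nos3 of 11 listed, was 2.08 and 0.548 on HYP arrays 4 and 6, beside -1.31 to -1.10 on the other HYP arrays. It was 0.249 and 0.876 on CHF arrays 10 and 14, beside -1.46 to -0.414 on the other CHF arrays, and between -1.29 and 0.815 in CON. There array 20 lay furthest to the Gpx3 side but was at -0.479, and array 17 was at 0.815. On CHF arrays 10 and 14 fibroblast means were 0.708 and 0.768 and smooth muscle and pericyte means 0.801 and 0.557, the highest of CHF. On HYP arrays 4 and 6 they were -0.350 and 0.696, and -0.211 and 0.271, with array 4 the lowest of HYP in both lists. Whether muscle or endothelial content, the sign of the scores or another property of the arrays sets these members' levels was not tested. Leaving out CHF arrays 10 and 14 together left the count for CHF against CON at 0 of 34.

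The genes left out had too few values in at least 1 right ventricle group, so uneven missing values among them follow from the filter. Gsr, the glutathione reductase, had a value on 5 CON, 3 HYP and 1 CHF array of the right ventricle and on all 6 left ventricle arrays. At most 1 CHF and at least 5 CON values were found in 6 of 4115 features (0.146%). These limits are the counts of Gsr itself, so the share is only a description. Gpx4, which reduces lipid peroxides in membranes, had a value on 2 of 18 right and all 6 left ventricle arrays. At most 2 right and all 6 left ventricle values were found in 2 features (0.0486%), Gpx4 among them. Those limits are likewise its own counts. Gpx6 had 3 right ventricle values and none on the left, and Gsta2 had 4 CON, 4 HYP and 1 CHF value on the right and 3 on the left. CHF arrays held fewer values in general, and the sources used here do not give what made a value missing.

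Around these genes, 115 other redox genes were listed (suppliers of NADPH, NRF2 partners and repair enzymes, sources of reactive oxygen species, haem and metal binding proteins, and mitochondrial carriers), and 55 could be tested in the right ventricle. By limma, 1 rose and 0 fell in CHF against CON and the same count held for HYP, while 0 passed for CHF against HYP, beside 0.907%, 0.281% and 0% of all features. The gene that rose was Maoa, the mitochondrial monoamine oxidase, whose reaction releases hydrogen peroxide, at 3.66 ± 0.473 in CHF (limma adjusted p = 0.0001571) and 2.47 ± 0.473 in HYP (limma adjusted p = 0.02259). Neither call held with the sign turned, at 2.70 (limma adjusted p = 0.1029) and 2.47 (0.3481). In CHF against CON 26 of the 55 differences were above 0, 7 had an unadjusted p below 0.05, beside 8.5% of all features, and the median was -0.0867, beside -0.0992. All 3 suppliers of NADPH tested were above 0 (median 0.533), and 8 of 20 NRF2 partners and repair enzymes were (median -0.224), with 0 calls in either list.

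After Maoa the smallest p-values in CHF were those of Cp, Ephx2 and Xdh. Cp, the copper protein ceruloplasmin, was at 1.04 ± 0.344 (limma adjusted p = 0.2827; turned, 1.27). Ephx2, an epoxide hydrolase, was at 1.53 ± 0.533 from 3 and 4 arrays (limma adjusted p = 0.344; turned, 0.273), and Xdh, xanthine dehydrogenase, at -0.864 ± 0.355 (limma adjusted p = 0.4774; turned, -0.180). Between the ventricles 8 of 47 of these redox genes passed, 7 of them higher on the right, beside the 18.3% of all features given above, and none passed with the sign turned.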

How the data were processed

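The deposited table holds 1 score per probe and array for 4803 probes. For the authors' scale, dyes, background correction, normalization and filters nothing is given in the sources used here, and the deposited scores, signed with a mean near 0 and an SD near 1 per array, were read as standardised ratios against the pool. The number of arrays limits the precision. Of the probes, 4278 had 1 gene symbol in the platform annotation, 4 several and 521 none. Each array was centred on its median and probes of 1 symbol were averaged. The limma package 3.58.1 (R 4.3.3; lmFit, contrasts.fit and eBayes, Benjamini-Hochberg over all features, adjusted p below 0.05) was run on 18 right ventricle arrays in 3 groups (3199 features) or all 24 arrays in 6 groups (2494 features), with at least 2 values per group. The left ventricle groups of 2 arrays were assumed to vary like the others. The test had been planned for log2 ratios and was run unchanged on the scores, so differences are no log2 fold changes. Errors are standard errors of the fit with moderated variances. Where 2 arrays correlated below -0.3, an alternative turned the sign of the one that correlated less, in the median, with right ventricle arrays. The procedure was also run on simulated data with independent noise for each feature. Such data lack the variation shared between genes described above, so the run does not show how calls behave under it.

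Differences are given for genes past the threshold and for the 8, 5, 5, 5 and 3 smallest p-values in CHF against CON, HYP against CON, CHF against HYP, right against left, and CHF against CON in the left ventricle. Array values are given for the 6 smallest p-values of the first and for Nfe2l2, Hmox1, Nqo1, Gclc, Gclm, Cat, Sod1, Sod2, Gpx1 and Gstp1. Sod3, Txn1, Gpx3 and Txn2 were shown by array after their values were seen. The genes and lists were chosen with earlier results of these data known. The alternatives were the deposited scores uncentred, the turned sign, stricter and no filters, quantile normalization, array weights, robust moderation, probes not averaged, the compared groups alone, the label number as a block and each array left out. Without CHF right ventricle arrays 10 and 14, and the first component as covariate, were added after seeing the data.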

Additional observations from a re-analysis of the deposited data

Results flagged for a closer look

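A single array stood apart from the others of its group, by Dixon's test at 95%, in 5 of 100 combinations of a gene and a right ventricle group, close to the 1 in 20 that chance gives. On HYP array 4, Gss, glutathione synthetase, scored 0.981 and the next HYP array 0.029, and Gstm5, a mu-class transferase, scored 1.71 beside -0.566 for the next. Nqo1 on CON array 20 scored -2.96, with the next lowest CON array at -0.773. Prdx1 on CHF array 12 scored -1.88, with the next lowest CHF array at -0.790, and that array also held the fewest values (2162). Txnrd2 on CON array 22 scored 0.719, with the next CON array at 0.372. HYP array 4 also lies on the Gpx3 side of the axis described above, with a cardiomyocyte marker mean of 0.806.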

How the results depend on the processing

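For the right ventricle comparisons 0 of the 34 genes passed under every alternative run, whether an array was left out or not, while the features called ranged from 9 to 49 in CHF against CON and from 0 to 11 in HYP against CON. The count between ventricles, 3 of 29 as reported, was 0 with the sign turned, 13 with array weights, 11 without CHF right ventricle arrays 10 and 14, and 2 to 6 leaving out 1 array. The label numbers that occur in both ventricles correlated from -0.200 to 0.305 in their deviations, and 3 of 6 were highest with their own number. By the rule used, which asks for every correlation above 0.1, the numbers were not taken as pairs, but the labels do not settle whether they mark the same animals. With the number as a replicate block over the 12 arrays concerned the count was 10, with Sod3 (limma adjusted p = 0.00708) and Txn2 (0.001676) among them. With the sign turned it was 3 for HYP against CON in the left ventricle and 1 for the difference of that effect between ventricles.

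With the sign turned, CHF minus CON reversed for Nfe2l2 (-0.478), Hmox1 (0.247), Gclc (-0.128), Gclm (0.351) and Sod1 (0.259), for Gstt2 (-0.773), Sod2 (0.988) and Gstp1 (-1.24) in the left ventricle, and right minus left for Sod3 (-0.0856). Array weights reversed Nfe2l2 (-0.170), Gclm (0.160) and Sod1 (0.0896), quantile normalization Gclm (0.00317), and leaving out CHF arrays 10 and 14 Nfe2l2 (-0.180), Gclm (0.224), Sod1 (0.150) and Sod2 (0.0223). Leaving out 1 array gave -0.234 to 0.395 for Nqo1, -0.310 to 0.111 for Gclm and -0.0884 to 0.353 for Gstp1. Prdx1 between ventricles lost its call uncentred (-0.608) and with no filter, where more features were tested. Of 355 named differences under other alternatives 324 kept direction and side of the threshold. Robust moderation, other filters, the compared groups alone and probes not averaged leave the difference of these genes, with 1 probe each, as it is. The count therefore does not measure how stable the differences are. The cause of these changes was not tested, and no depth is known for these scores.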
